A study of Mus musculus with 8 samples.

Results

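The SOCS inhibitors and the STAT factors of cytokine signalling were followed in splenic B cells of mice that carry the human germinal centre gene HGAL. The members were Socs1, Socs2, Socs3, Socs5, Socs6, Socs7, Cish, Stat3, Stat5a and Stat6. They were found as rows of the deposited value table that the platform annotation pairs with 1 of these symbols alone. The 10 genes had 14 of the 21640 probe sets with 1 gene symbol. Where a gene had several probe sets, the one with the highest mean level over the 8 arrays was its main one, and the others are given too. The main probe sets were chosen by level, the mean over all arrays, and not by group. The list itself was proposed with earlier results of these data in view, Socs3 among them, so its differences are given as a description and support nothing by themselves.

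Sca1-HGAL mice express HGAL (GCET2), which human germinal centre B cells use as a signalling adaptor, from the Sca1 (Ly-6E.1) promoter. One label calls them knock-in and the design text transgenic. The Control samples are wild-type littermates. Both groups are adult mice on a CBAxC57BL/6J background, and both lack any further treatment in the labels. The Sca1 promoter is active in blood stem cells and in several blood cell types, so it does not restrict the transgene to B cells. Spleen cells positive for CD22 and B220 were sorted, and total RNA of 4 Sca1-HGAL and 4 Control samples was hybridised to 1 Mouse Gene 1.0 ST array (Affymetrix) each. Whether each array is a separate mouse is not given in the labels, so p-values measure only the spread between these samples.

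Cytokines bind receptors that carry Janus kinases, which phosphorylate STAT factors so that these enter the nucleus and switch on target genes. Among the targets are SOCS genes, whose proteins hold an SH2 domain and a SOCS box and act back on the receptor or the kinase, some through a ubiquitin ligase. In B cells interleukin 4 acts mainly through STAT6, interleukins 6, 10 and 21 through STAT3, and type I interferons in part through STAT2.

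Levels are log2 of the deposited intensities, and log2 folds are Sca1-HGAL minus Control with their standard error (SE). Every adjusted p is from limma with Benjamini-Hochberg adjustment over all 21640 probe sets. The 6 measured B-cell markers (Cd79a, Cd79b, Cd22, Ms4a1, Pax5 and Ptprc) were high on every array, with a mean level of 13.00 to 13.03 in Sca1-HGAL and 13.05 to 13.09 in Control arrays. Control replicates 2 and 4 had Xist at 12.17 and 12.18, against 5.28 to 5.65 on the other 6 arrays, and Eif2s3y, a Y-linked gene, at 4.22 and 3.96, against 10.21 to 10.61. Sex therefore appears uneven between the groups, and results are also given without these 2 arrays. In a sorted population, a change in the share of a cell type and a change of RNA per cell cannot be told apart. Array medians of the intensity ran from 145.2 to 151.4, and the precision is limited by 4 arrays per group.

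None of the 10 members passed limma at a Benjamini-Hochberg adjusted p under 0.05, a threshold that 0.00462% of the 21640 probe sets passed. Socs3 and Stat3 came closest, and both were higher on all 4 Sca1-HGAL arrays than on any Control array. At an unadjusted p under 0.05 these 2 of the 10 members were counted, both on the higher side, beside 9.53% of the 19937 main probe sets, 5.49% on the higher side. The groups did not overlap for the same 2 members, beside 5.48% of main probe sets. Over the 10 members the median log2 fold was 0.04, with 6 positive, against a median of 0.02 over all main probe sets, 56.4% of them positive. Since Socs3 was known to be separated when the list was drawn up, nothing is read from these counts.

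**Figure D1:**
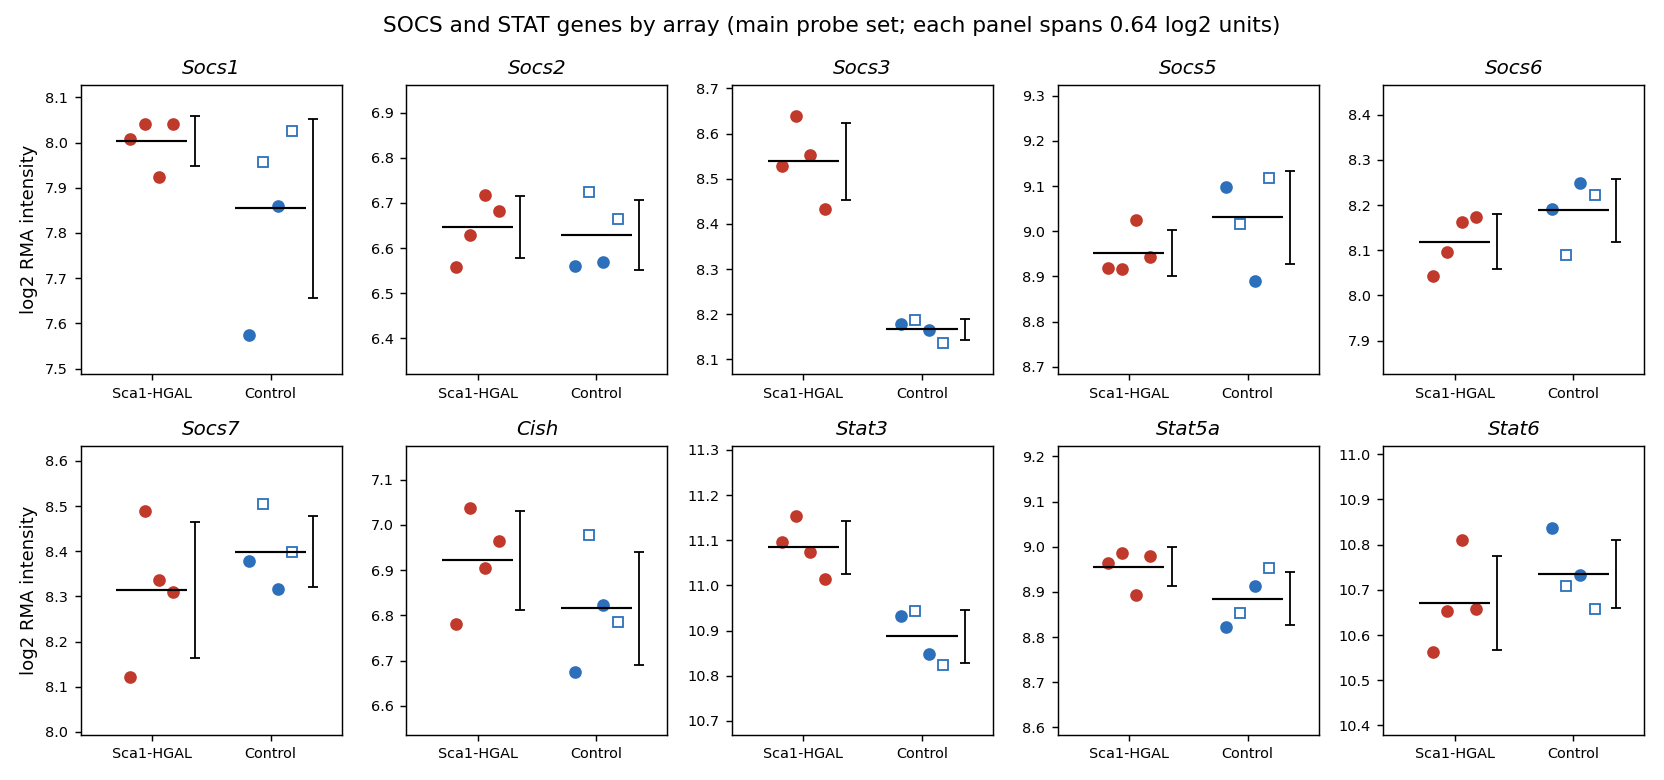
Log2 RMA intensity (vertical axis) of the main probe set of each gene, with Sca1-HGAL arrays (red) left of Control arrays (blue). Open squares are Control replicates 2 and 4, horizontal lines are means and bars are SD (n = 4). Every panel spans the same 0.64 log2 units, and the groups lie apart for Socs3 and Stat3 only.

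Socs3 inhibits receptors that share the gp130 chain and is itself switched on by STAT3. Its main probe set was at 8.53, 8.64, 8.55 and 8.43 in Sca1-HGAL replicates 1 to 4, against 8.18, 8.19, 8.17 and 8.14 in Control replicates 1 to 4. The 4 Control arrays lay close together, and the lowest Sca1-HGAL array was 0.24 above the highest Control array. The means were 8.54 ± 0.09 in Sca1-HGAL and 8.17 ± 0.02 in Control arrays (SD, n = 4 each). The log2 fold was 0.37 (SE 0.06, adjusted p = 0.111), which is 1.29-fold on the linear scale, with a 95% interval of the log2 fold from 0.24 to 0.51. By its unadjusted p of 0.00011 it ranked 21 among the 21640 probe sets. Its spread within groups was small, with a pooled SD of 0.062 against a median of 0.115 over all probe sets, and 9.2% of probe sets had a lower one.

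The other Socs3 probe set did not show a difference of this size. It was at 6.65, 6.76, 6.75 and 6.76 in Sca1-HGAL arrays, against 6.64, 6.72, 6.73 and 6.57 in Control arrays. The groups overlapped, with a log2 fold of 0.07 (SE 0.06, adjusted p = 0.784) and a 95% interval from -0.07 to 0.20. That interval ends below the lower end of the interval of the main probe set. The platform table ties the main probe set to the RefSeq transcript of Socs3 and the other one to a single GenBank entry. When both were averaged, the log2 fold was 0.22 (limma adjusted p = 0.242).

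The sequence before the Socs3 start is shown because Socs3 is the member with the largest difference and a known STAT target. It was searched on both strands for TTCNNNGAA, the core of the site that most STAT dimers bind, and for TTCNNNNGAA, the wider spacing that STAT6 also binds. Both motifs are their own reverse complement, and capitals mark a match. The sequences are from RefSeq on GRCm38.p6, 5′ to 3′ on the gene's strand. Socs3 lies on the minus strand, and the 250 bases before the start that the RefSeq promoter table uses, at 117969366, are chr11:117969367-117969616. The span of Socs3 in the RefSeq gene table, from 117966079 to 117970336, reaches further upstream and holds this window.
Socs3: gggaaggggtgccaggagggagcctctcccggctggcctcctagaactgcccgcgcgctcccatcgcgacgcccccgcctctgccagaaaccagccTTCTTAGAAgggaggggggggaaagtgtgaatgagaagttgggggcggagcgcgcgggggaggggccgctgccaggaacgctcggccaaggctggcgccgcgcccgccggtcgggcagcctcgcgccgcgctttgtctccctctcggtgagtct
The single match, TTCTTAGAA, begins 154 bases before the start. For comparison, the first 30 bases from the start of Cish, a gene known as a STAT5 target, are shown from the plus strand (chr9:107296659-107296688).
Cish: TTCCTGGAAagTTCTTGGAAatctgtcaaa
Cish holds both of its TTCNNNGAA matches there, TTCCTGGAA and TTCTTGGAA. The search covered 7 RefSeq promoter windows of 300 bases for 6 members (Cish, Socs1, Socs3, Stat3, Stat5a with 2 windows, and Stat6). Socs6 was left out of this search, and no window was found for Socs2, Socs5 and Socs7. The counts therefore do not cover these members. Of the 7 windows, 2, those of Socs3 and Cish, held TTCNNNGAA and 0 held TTCNNNNGAA. Among all 32851 promoter windows of this length, 8.3% held TTCNNNGAA and 6.95% held TTCNNNNGAA. A match describes letters and does not show binding.

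Stat3, which carries signals of interleukins 6, 10 and 21, was at 11.10, 11.15, 11.07 and 11.01 in Sca1-HGAL arrays, against 10.93, 10.94, 10.85 and 10.82 in Control arrays. The groups did not overlap, but the gap between them was 0.07. The log2 fold was 0.20 (SE 0.06, adjusted p = 0.33), a 1.15-fold difference, with a 95% interval from 0.07 to 0.33. For Stat3 the pooled SD within groups was 0.059, lower than for most probe sets. The 250 bases before its start in the same promoter table, on the minus strand at chr11:100939541-100939790, reach past the end of the gene's span at 100939594. They are shown because Stat3 is the other member whose groups lay apart.
Stat3: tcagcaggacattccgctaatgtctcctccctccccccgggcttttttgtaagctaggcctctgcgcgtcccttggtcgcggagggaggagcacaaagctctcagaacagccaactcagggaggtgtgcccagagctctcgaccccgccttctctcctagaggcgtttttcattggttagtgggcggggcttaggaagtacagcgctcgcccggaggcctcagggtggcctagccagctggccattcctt
This run has no capitals, since neither motif matched in the window.

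Markers of other blood cells, many of which also express Socs3 and Stat3, moved with the groups in part. All 9 neutrophil markers had a positive log2 fold, with a median of 0.40, 5 of them higher at an unadjusted p under 0.05, beside 5.49% of all main probe sets, and their mean level was 6.48 to 7.78 in Sca1-HGAL and 6.29 to 7.02 in Control arrays. Elane (log2 fold 0.40, SE 0.12) and Mmp9 (0.34, SE 0.10), which encode proteases of neutrophil granules, were higher on all 4 Sca1-HGAL arrays than on any Control array. Groups lay apart, in either direction, for 5.48% of main probe sets. Without Control replicates 2 and 4, only Elane (0.46) and Mmp9 (0.30) of this list had an unadjusted limma p under 0.05. Ngp then had 1.00 (SE 0.99), Lcn2 0.82 (SE 0.77), S100a8 0.50, Mpo 0.44, Ltf 0.34, Camp 0.12 and S100a9 -0.02. Of 7 macrophage and monocyte markers, 4 were positive, with a mean level of 7.67 to 8.15 in Sca1-HGAL and 7.60 to 8.07 in Control arrays. Adgre1, a macrophage surface receptor, also lay apart, with a log2 fold of 1.01 (SE 0.19, adjusted p = 0.122), whereas Cd68 had 0.09 (SE 0.26).

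Of 6 plasmacytoid dendritic cell markers, 4 were negative, and their mean level was 8.73 to 8.91 in Sca1-HGAL and 8.92 to 9.35 in Control arrays. Siglech (-0.68, SE 0.21) and Ccr9 (-0.83, SE 0.23) were lower on every Sca1-HGAL array than on any Control array. Groups lay apart, in either direction, for 5.48% of main probe sets. The rest of this list overlapped, with -0.18 for Pacsin1, -0.06 for Bst2, 0.04 for Irf8 and 0.22 for Tcf4. Of 6 NK cell markers, 5 were negative, with a mean level of 6.17 to 7.04 in Sca1-HGAL and 6.66 to 7.32 in Control arrays. The 7 T cell markers, 5 of them positive, had a mean level of 7.10 to 8.27 in Sca1-HGAL and 7.51 to 7.95 in Control arrays.

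Sca1-HGAL replicate 3 had the lowest mean neutrophil, T cell and NK cell levels of its group, at 6.48, 7.10 and 6.17, and on it Socs3 was at 8.55 and Stat3 at 11.07. Without that array the log2 folds were 0.37 for Socs3 (adjusted p = 0.072) and 0.20 for Stat3 (adjusted p = 0.298). Sca1-HGAL replicate 1 had the highest mean neutrophil, T cell and NK cell levels of its group. Without it the log2 folds were 0.37 for Socs3 (adjusted p = 0.159) and 0.19 for Stat3 (adjusted p = 0.324). The part of other blood cells in the Socs3 and Stat3 values was not tested.

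Without Control replicates 2 and 4, the log2 fold of Socs3 was 0.37 (SE 0.08, adjusted p = 0.465) and that of Stat3 0.19 (SE 0.08, adjusted p = 0.601). Both sizes were close to those with all 8 arrays.

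Socs1, which binds Janus kinases directly and is induced by interferons and interleukin 4, had the widest spread of the 10 main probe sets among the Control arrays. Its level was 8.01, 8.04, 7.92 and 8.04 in Sca1-HGAL arrays, against 7.57, 7.96, 7.86 and 8.03 in Control arrays. The 4 Sca1-HGAL arrays lay close together near the top of the Control range, so the groups overlapped. The log2 fold was 0.15 (SE 0.09, adjusted p = 0.666), with a 95% interval from -0.06 to 0.36. The size depended on single Control arrays. Without Control replicate 1, the lowest, it was 0.06, and without Control replicates 2 and 4 it was 0.29 (SE 0.10, limma unadjusted p = 0.020, adjusted p = 0.573). In that smaller comparison Socs1, Socs3 and Stat3 were the members at an unadjusted p under 0.05, beside 8.07% of all probe sets.

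Cish, a STAT5 target that acts back on cytokine receptors, was at 6.78, 7.04, 6.90 and 6.96 in Sca1-HGAL arrays, against 6.67, 6.98, 6.82 and 6.79 in Control arrays. The groups overlapped, with a log2 fold of 0.11 (SE 0.08, adjusted p = 0.733). Without Control replicate 1 the log2 fold was 0.06, and without Control replicates 2 and 4 it was 0.17. Socs2, an inhibitor of growth hormone signalling, was at 6.56, 6.63, 6.72 and 6.68 in Sca1-HGAL arrays, against 6.56, 6.72, 6.57 and 6.66 in Control arrays. Its log2 fold was 0.02 (SE 0.06), with a 95% interval from -0.13 to 0.16, and its sign turned when any of 3 arrays was left out, to -0.0062 without Sca1-HGAL replicate 3. Its other probe set had a log2 fold of 0.00 (SE 0.14) and spread more widely, with 5.82 in Control replicate 1 and 6.54 in Control replicate 3. More than most probe sets, 92.7% of which had a lower SD, this one varied within groups.

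Socs5, Socs6 and Socs7, which have long N-terminal regions, had small negative values, none past the threshold. Socs4, which also has such a region and is no member, had 0.09. Socs5, linked to the interleukin 4 and epidermal growth factor receptors, was at 8.92, 8.92, 9.03 and 8.94 in Sca1-HGAL arrays, against 9.10, 9.02, 8.89 and 9.12 in Control arrays. Its log2 fold was -0.08 (SE 0.07, adjusted p = 0.762). Control replicate 3 was the lowest of all 8 arrays for Socs5, so the groups overlapped, and without that array the value was -0.13, against -0.05 without Control replicate 4.

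Socs6, which binds the receptor kinase Kit, was at 8.04, 8.10, 8.16 and 8.17 in Sca1-HGAL arrays, against 8.19, 8.09, 8.25 and 8.22 in Control arrays. Its log2 fold was -0.07 (SE 0.06, adjusted p = 0.777). Further probe sets of Socs6 had -0.05 (SE 0.09) and 0.05 (SE 0.06). The last one was very dim, at 3.57 in Sca1-HGAL and 3.52 in Control arrays, and carries no detection call, so its value has little weight.

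Socs7, an adaptor-binding member of the family, was at 8.12, 8.49, 8.34 and 8.31 in Sca1-HGAL arrays, against 8.38, 8.51, 8.32 and 8.40 in Control arrays. Its log2 fold was -0.08 (SE 0.08, adjusted p = 0.799). Sca1-HGAL replicate 1 was the lowest of all arrays, and without it the value was -0.02, against -0.14 without Sca1-HGAL replicate 2 and -0.05 without Control replicate 2.

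**Figure D2:**
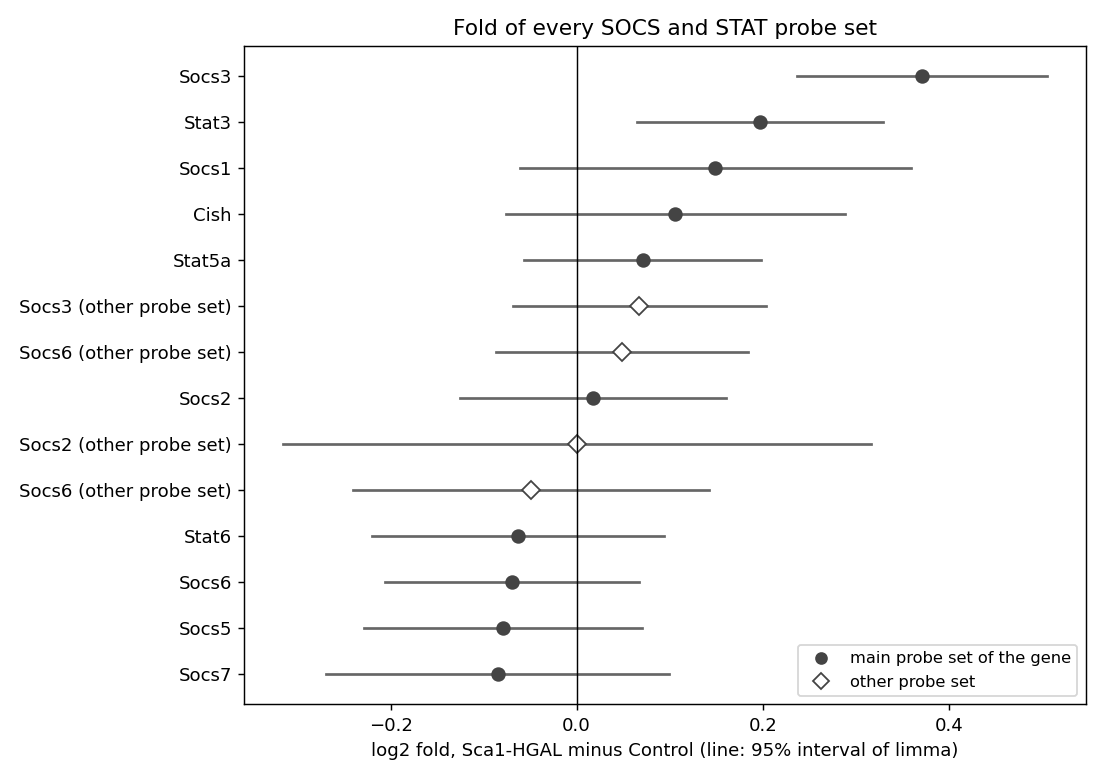
Log2 fold of Sca1-HGAL minus Control (horizontal axis) for each of the 14 probe sets of the 10 genes, with lines for the 95% interval of limma, before any adjustment for multiple tests. Filled circles are main probe sets and open diamonds the others, and the interval lies wholly above 0 for the main probe sets of Socs3 (0.24 to 0.51) and Stat3 (0.07 to 0.33).

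Stat5a, which transmits interleukin 2 and interleukin 7 signals, was at 8.96, 8.99, 8.89 and 8.98 in Sca1-HGAL arrays, against 8.82, 8.85, 8.91 and 8.95 in Control arrays. The groups overlapped through Sca1-HGAL replicate 3, and the log2 fold was 0.07 (SE 0.06, adjusted p = 0.747). Stat5a had one of the smallest spreads, with 4.3% of probe sets below its pooled SD of 0.051, and its 95% interval ran from -0.06 to 0.20. Stat5b, its close copy, had a log2 fold of 0.04 (SE 0.06). The 3 genes Stat5b, Stat5a and Stat3 lie next to each other on chromosome 11, and their log2 folds were 0.04, 0.07 and 0.20.

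Stat6, the factor of interleukin 4 signals, was at 10.56, 10.65, 10.81 and 10.66 in Sca1-HGAL arrays, against 10.84, 10.71, 10.73 and 10.66 in Control arrays. Its log2 fold was -0.06 (SE 0.07, adjusted p = 0.826), with a 95% interval from -0.22 to 0.09. The size depended on single arrays, with -0.11 without Sca1-HGAL replicate 3 and -0.03 without Sca1-HGAL replicate 1 or Control replicate 1. The ranges of the groups overlapped, which does not show that the levels are equal.

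Of the other SOCS and STAT genes, Stat2, a factor of interferon signalling, had the value furthest from 0, at -0.24 (SE 0.09, adjusted p = 0.417 by limma). Stat4, which carries interleukin 12 signals, had -0.10 (SE 0.10), and the SE of the Socs4 value given above was 0.09. Among the kinases, the log2 fold was -0.01 (SE 0.05) for Jak1, -0.06 (SE 0.10) for Jak2 and 0.01 (SE 0.06) for Tyk2, and Jak3 was not analysed here. None of these 6 genes passed the adjusted threshold.

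Among 30 measured cytokine receptor genes of the pathway, 16 had a positive and 14 a negative log2 fold, with a median of 0.02, and 0 passed limma's adjusted p. At an unadjusted p under 0.05 the counts were 0 higher and 2 lower, beside 5.49% higher and 4.03% lower of all main probe sets. The lower ones were Il27ra and Lifr. Il27ra, the receptor chain for the cytokine IL-27, was at 9.15, 9.30, 9.59 and 9.44 in Sca1-HGAL arrays, against 9.90, 9.96, 9.91 and 9.76 in Control arrays. The groups lay apart, with a log2 fold of -0.51 (SE 0.09, adjusted p = 0.122), and of -0.53 without Control replicates 2 and 4. Lifr, which binds leukaemia inhibitory factor together with gp130, had -0.74 (SE 0.20, adjusted p = 0.286), with overlapping groups. Csf3r had 0.27 (SE 0.13) and Ifnar1 -0.16 (SE 0.08).

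Il27ra, Lifr and Csf3r, given above, are receptors whose signals SOCS3 or STAT3 are known to take part in. Of further genes of this kind, Il6st, which encodes gp130, had a log2 fold of -0.09 (SE 0.19) and Il6ra 0.06 (SE 0.08). Il10ra had -0.07 (SE 0.08), Il10rb -0.11 (SE 0.07) and Il21r -0.09 (SE 0.10). These genes were named as receptors of interleukins 6, 10 and 21 after their values were seen. Il4ra, upstream of Stat6, had 0.02 (SE 0.08).

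Some receptor and cytokine genes were high on Sca1-HGAL replicate 1 alone, and were named after their values were seen. Il10 was at 8.08 there, against 5.54 to 5.80 on the other Sca1-HGAL and 5.53 to 6.04 on the Control arrays. Il5ra was at 11.24 there, and Csf2rb, the common chain of the interleukin 3, interleukin 5 and GM-CSF receptors, at 10.79. The 5 plasma cell markers had a mean level of 9.34 on this array, against 8.51 to 8.94 on the other Sca1-HGAL arrays and 8.86 to 9.27 on Control arrays. They did not move together. On this array Jchain (10.20) and Prdm1 (8.84) were higher than on any other array. Sdc1 (7.17), Irf4 (11.02) and Slamf7 (9.49) were lower there than on any Control array, but were not particular to this array. On the other Sca1-HGAL arrays Sdc1 ran from 7.02 to 7.37, Irf4 from 10.55 to 11.72 and Slamf7 from 9.16 to 9.83. The part of plasma cells in the Il10, Il5ra and Csf2rb values was not tested. Il2rb, a receptor chain that T and NK cells share, was at 8.94, 9.13, 6.92 and 8.23 in Sca1-HGAL arrays, against 7.03, 7.60, 8.07 and 7.37 in Control arrays. Its lowest value fell on Sca1-HGAL replicate 3, the array with the lowest T cell and NK cell markers.

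Of 12 other inhibitors of the pathway, 5 had a positive and 7 a negative log2 fold, and 0 passed limma's adjusted p. Unadjusted, 2 of 12 were higher and 1 of 12 lower, beside 5.49% higher and 4.03% lower of all main probe sets. Ptpn1, a phosphatase that acts on Janus kinases, was at 10.66, 10.60, 10.44 and 10.71 in Sca1-HGAL arrays, against 10.34, 10.24, 10.35 and 10.28 in Control arrays. The groups lay apart, with a log2 fold of 0.30 (SE 0.07, adjusted p = 0.198), and of 0.26 without Control replicates 2 and 4. Ptpn11, the phosphatase SHP2 that binds gp130 at the site SOCS3 uses, had 0.18 (SE 0.08, adjusted p = 0.52), and its groups did not overlap either, though by a very small margin. Usp18, an interferon-induced inhibitor of the interferon receptor, had -0.74 (SE 0.28, adjusted p = 0.45), and Ptpn2 had -0.14 (SE 0.10). Of the 7 genes listed as SOCS box ligase partners, 0 passed limma's adjusted p. Rnf7 had 0.24 (SE 0.09, adjusted p = 0.449), Eloc 0.08, Cul5 -0.07 and Ube2f 0.03.

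**Figure D3:**
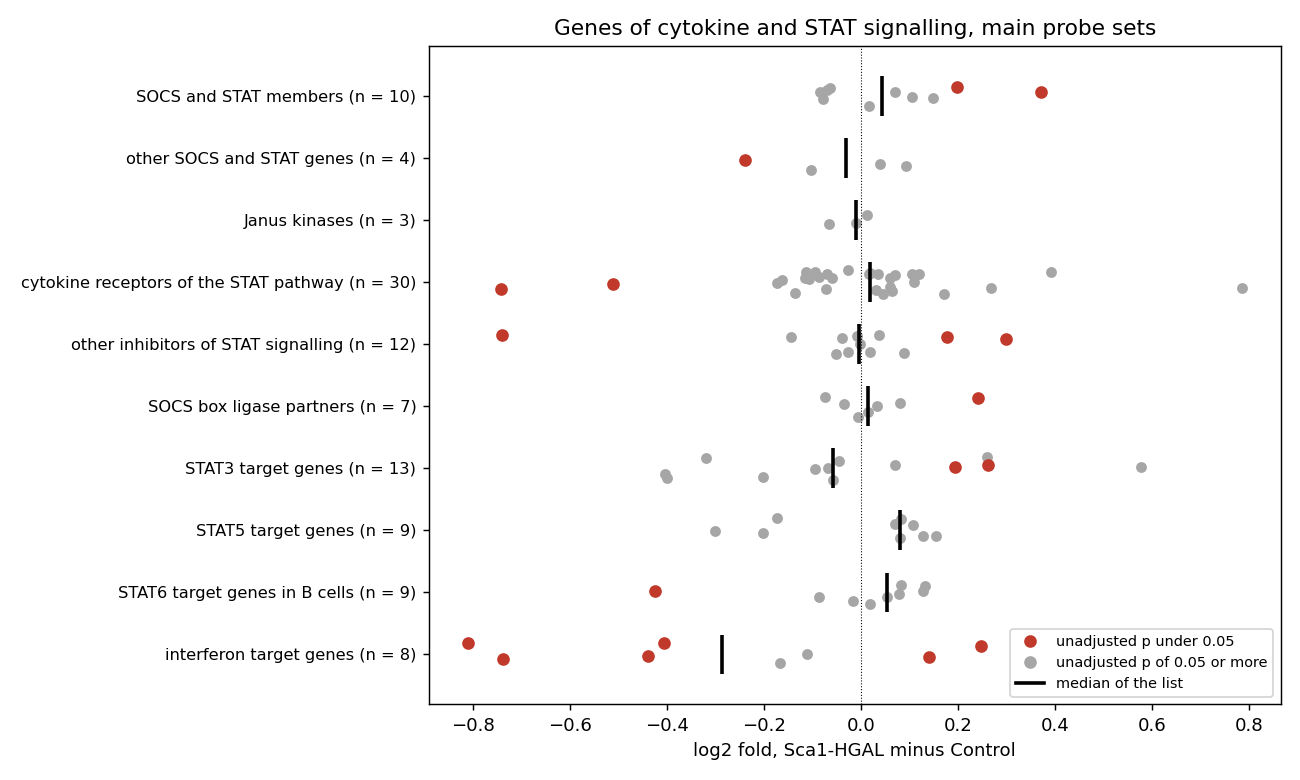
Log2 fold of Sca1-HGAL minus Control (horizontal axis) for the measured genes of each list, 1 point per gene by its main probe set. Black bars are medians, and red points have an unadjusted limma p under 0.05; the medians lie between -0.06 and 0.08 except for the interferon list at -0.29.

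The target genes of the STAT factors, in lists drawn up from general knowledge, did not move as one group. Of 13 STAT3 targets, 5 had a positive and 8 a negative log2 fold, with a median of -0.06, and 0 passed limma's adjusted p, with 2 of 13 higher and 0 lower unadjusted, beside 5.49% higher and 4.03% lower of all main probe sets. Batf, a transcription factor of class switching, had 0.26 (SE 0.09, adjusted p = 0.379), and Bcl3, an NF-kB regulator, 0.19 (SE 0.08, adjusted p = 0.502). On the other side Myc had -0.40 (SE 0.19) and Junb -0.40 (SE 0.19). Without Control replicates 2 and 4, Batf had 0.32 and Bcl3 0.11.

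Of 9 STAT5 targets, 6 were positive, with a median of 0.08. At an unadjusted limma p under 0.05, 0 were counted, beside 5.49% higher and 4.03% lower of all main probe sets. Osm had 0.16 (SE 0.08), Bcl2 0.13 (SE 0.10), Bcl6 -0.30 (SE 0.19) and Pim1 -0.20 (SE 0.15). Of 9 STAT6 targets, 6 were positive, with a median of 0.05, and 1 of 9 was counted unadjusted, on the lower side, beside 4.03% of all main probe sets. That was Fcer2a, the low-affinity IgE receptor CD23, at 12.12, 12.09, 12.54 and 12.25 in Sca1-HGAL arrays, against 12.68, 12.59, 12.83 and 12.59 in Control arrays. Its groups lay apart by a small margin, with a log2 fold of -0.42 (SE 0.10, adjusted p = 0.225). H2-Ab1 had 0.13 (SE 0.07), Epas1 0.08 (SE 0.06) and Nfil3 0.13 (SE 0.11), all on the positive side.

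The 8 interferon targets had a median log2 fold of -0.29, and 0 passed limma's adjusted p. Unadjusted, 2 of 8 were higher and 4 of 8 lower, beside 5.49% higher and 4.03% lower of all main probe sets. Rtp4 was at 7.58, 7.54, 7.58 and 7.98 in Sca1-HGAL arrays, against 7.86, 8.65, 7.99 and 9.13 in Control arrays. The highest Rtp4 values were those of Control replicates 2 and 4, the arrays with high Xist. Usp18 was at 7.72 to 8.73 on Sca1-HGAL arrays, against 9.25 and 9.56 on these 2 Control arrays and 8.28 and 8.59 on the other Control arrays. Without them the list median was -0.09, and the log2 fold was -0.25 for Rtp4, -0.26 for Usp18, -0.26 for Ifit3, -0.19 for Cmpk2 and -0.12 for Stat2. Cxcl10 went the other way, with 0.25 with all arrays and 0.30 without them. So did Ciita, with 0.14 (SE 0.06, limma adjusted p = 0.506) with all arrays and 0.17 without Control replicates 2 and 4. With all arrays its groups lay apart by a very small margin, beside 5.48% of main probe sets with groups apart. Socs1, also an interferon target, was highest among Control arrays on replicates 2 and 4, whereas Socs3 was at 8.19 and 8.14 there, near the other Control arrays.

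**Figure D4:**
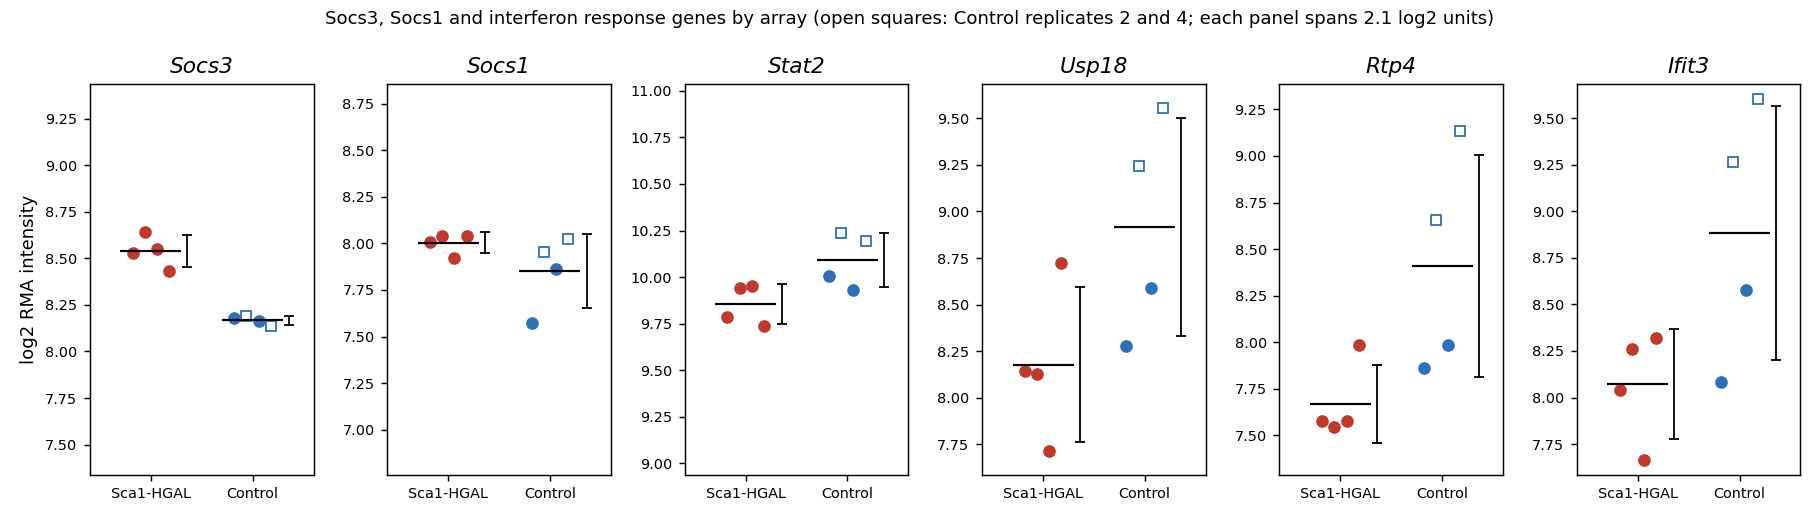
Log2 RMA intensity (vertical axis) of Socs3, Socs1 and interferon response genes, Sca1-HGAL arrays (red) left of Control arrays (blue), with means as lines and SD as bars (n = 4). Open squares, Control replicates 2 and 4, lie highest in their group for Socs1, Stat2, Usp18, Rtp4 and Ifit3, while the Control values of Socs3 stay between 8.14 and 8.19.

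The 5 named genes whose levels ran most like those of Socs3 over the 8 arrays were Sdr42e1, Nicn1, Mir488, Ddhd2 and Epn2. Likeness was the root mean square difference of mean-centred log2 levels, which was 0.052, 0.056, 0.072, 0.073 and 0.076 for these genes, against a median of 0.215 over 18644 genes. All 5 had groups that did not overlap, as the choice by likeness to Socs3 makes probable. Their log2 folds lay between 0.27 for Mir488 and 0.35 for Ddhd2. Mir488 was dim, at 3.77 in Sca1-HGAL and 3.50 in Control arrays. No SOCS, STAT or receptor gene was among them, but nothing is read from this, since only 5 of 18644 genes were listed.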

How the data were processed

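Sorted B-cell RNA of 4 Sca1-HGAL and 4 Control samples was measured on 1-colour arrays, and titles gave the groups. Each deposited value is an RMA intensity of a probe set, as the submitters' processing notes name that method. RMA subtracts background, sets arrays to a common distribution and combines probes, so a change shared by most genes is lost. Its version, the annotation and the build were not given in the sources used here. Values ran from 4.94 to 24302, which is a linear scale, so log2 was taken here, unfiltered.

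Of 34760 rows, 21640 had 1 gene symbol and were tested, 1321 had several and 11799 had none. The test was limma 3.58.1 (R 4.3.3), comparing the 2 groups without covariates, two-sided, with Benjamini-Hochberg adjustment over all 21640 and a threshold of 0.05. The method was tested on simulated data. The members and lists were chosen with earlier results of these data known. All members were named, with up to 4 genes of each pathway list by smallest p. Some further genes of these lists, mainly cytokine receptors, were named after their values were seen. Alternatives covered normalisation, dim probe sets, spread estimates, the replicate number and left-out arrays. Some genes were not analysed here.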

Additional observations from a re-analysis of the deposited data

Results flagged for a closer look

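Over the member probe sets and pathway lists, 48 sets of 4 values were searched for a single array far from the rest of its group. Such an array was found once, where chance gives about 2.4. For the other Socs3 probe set, Sca1-HGAL replicate 1 was at 6.65, below the 6.75 to 6.76 of the remaining Sca1-HGAL arrays.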

How the results depend on the processing

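None of the 10 members passed the adjusted threshold in any of the 17 alternative settings, and Socs3 and Stat3 had an unadjusted limma p under 0.05 in all 17. The log2 fold of Socs3 ran from 0.22 (mean of its probe sets) to 0.41 (without Sca1-HGAL replicate 4), with an adjusted p from 0.072 to 0.465, and that of Stat3 from 0.17 to 0.22, with an adjusted p from 0.263 to 0.634. Only Socs2 changed sign, at -0.0062 without Sca1-HGAL replicate 3, -0.0055 without Control replicate 1 and -0.0026 without Control replicate 3, with 0.0487 without Control replicate 2 as the highest value when 1 array was left out and 0.0816 without Control replicates 2 and 4. The count of all probe sets past the threshold, 1 with every array, was 12 with array quality weights, 6 with the replicate block, 2 with probe sets averaged per gene and 2 without Control replicates 2 and 4. Leaving out 1 array in turn gave 1 to 40, with 40 without Sca1-HGAL replicate 3. The cause was not tested. The replicate numbers did not pair the samples: same-numbered arrays had correlations of their deviations of -0.16, 0.053, -0.134 and -0.01. With the replicate block Socs3 had an adjusted p = 0.214 and Stat3 0.447. The count of members at an unadjusted p under 0.05 stayed at 2, except 3 without Control replicates 2 and 4. Values of dim probe sets carry no detection calls, so signal over background is unknown.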
